A study of Mus musculus with 5 samples.

Results

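Narrow ceiling sites are the accessible sites of MycER fibroblasts whose peaks scored 3100, the value at which the peak caller's scores pile up, or more in every list of the series, and whose merged interval stayed under 4000 bp. They were chosen by these measured scores and widths. Peaks of the 3 distinct lists that overlapped by at least 1 bp were merged into 52181 sites. Of these, 31871 had a peak in each list (shared sites), and 30993 of the shared sites were under 4000 bp wide (narrow shared sites). A score of 3100 or more in all 3 lists picked out 2346 of the 30993, or 7.57%. The other 28647 narrow shared sites serve as the comparison throughout. The word narrow refers only to the width limit, because the members were wider than the sites they are compared with, as the widths below show.

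The cells were mouse 3T9 fibroblasts, a line immortalised by serial passage of embryonic fibroblasts, here from E13.5 embryos of mixed strain with genotype c-mycflox/flox. All libraries, the vehicle controls included, came from cells infected in vitro with MycER, Myc fused to part of the estrogen receptor and switched on by 4-hydroxytamoxifen (4-OHT). The EtOH 0 h group (ethanol vehicle) and the 4-OHT 4 h group (400 nM) had 2 libraries each, and 1 input of sonicated genomic DNA had no peak list here. The endogenous c-Myc alleles are floxed in all groups, and the labels do not say whether they had been deleted. Nothing in the labels says whether the libraries of a group came from separate cultures, or whether the infected cells were a clone or a pool.

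DNase I cuts DNA most readily where nucleosomes are displaced. Such hypersensitive sites mark promoters, enhancers and insulators, and the strongest are often found at the promoters of constantly active genes and at sites bound by many factors. A peak caller scores each site by how far its reads exceed the background, so a high score reflects both accessibility and the number of reads sequenced.

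One list was deposited under both treatments. All 44956 peaks of 4-OHT 4 h replicate 1 had the same positions and scores as those of EtOH 0 h replicate 2, so it is called the double-labelled list and used once. The vehicle list (EtOH 0 h replicate 1, 35149 peaks) and the 4-OHT list (4-OHT 4 h replicate 2, 47621 peaks) each have 1 clear label. With 1 such list per treatment, no difference between treatments can be tested, and the number of reads behind each list is unknown. All comparisons below are therefore descriptions. Percentages carry Wilson 95% intervals and medians carry 95% intervals from the exact binomial order statistics. Both kinds of interval cover only the counting error over sites, and adjacent sites may depend on each other.

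The score reached a stop at 3100. The vehicle list held 2569 peaks at exactly 3100, the double-labelled list 6301 and the 4-OHT list 4648, against 134, 235 and 226 peaks between 3000 and 3100. Another 189, 291 and 285 peaks scored above 3100, and the highest score in each list was 3233.06. On a scale of minus 10 times the log10 of the p-value, 3233.06 is the value of the smallest number above 0 that double-precision arithmetic can hold. A p-value below that becomes 0, and peaks at exactly 3100 lie where no such value can be computed. Scores above 3100 are therefore not read here as stronger than 3100. Members scored exactly 3100 in all 3 lists at 2168 sites, and above 3100 in at least 1 list at 178 sites. Their scores cannot rank them, so the members are described below by width, position and surroundings.

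Membership was set almost wholly by the vehicle list. Of the narrow shared sites, 2355 (7.6%) were at the ceiling in the vehicle list, 5927 (19.1%) in the double-labelled list and 4358 (14.1%) in the 4-OHT list. The 2346 members were 99.6% of the first, 39.6% of the second and 53.8% of the third. A further 1885 sites were at the ceiling in the double-labelled and 4-OHT lists but not in the vehicle list, and 1689 in the double-labelled list alone. Ceiling calls were thus mostly nested. Of the exceptions, 126 were at the ceiling in the 4-OHT list alone. Only 1 was at it in the vehicle list alone, 7 in the vehicle and double-labelled lists and 1 in the vehicle and 4-OHT lists. Median scores of the other narrow shared sites were also lowest in the vehicle list, at 321 against 616 in the double-labelled list and 563 in the 4-OHT list.

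The same counts were then read list by list, among sites at the ceiling in both other lists. These shares regroup the nesting above and are no separate support, since every list entered the rule and the merged widths. Sites under 4000 bp at the ceiling in the vehicle and 4-OHT lists numbered 2347, and 2346 of them (99.96%, 99.8% to 99.99%) were at it in the double-labelled list. Sites at the ceiling in the vehicle and double-labelled lists numbered 2353, of which 99.7% (99.4% to 99.9%) were at it in the 4-OHT list, and the 7 others scored at least 2768 there. Sites at the ceiling in the double-labelled and 4-OHT lists numbered 4231, of which 55.4% (53.9% to 56.9%) were at it in the vehicle list. None of the 4231 lacked a peak in the vehicle list. The 1885 below the ceiling had a median vehicle score of 2484, 3920 of the 4231 scored at least 2000, and 4 scored under 1000, with 731 the lowest. Just outside the rule, in contrast to members with 3100 in the vehicle list, chr2:70498728-70500880 scored 3098.25 in the vehicle list, chr2:33070456-33073513 scored 3098.14 and chr4:99381424-99383270 scored 3097.97, with 3100 in both other lists at each.

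Members were wide for shared sites under 4000 bp. Their median width was 2358 bp (2329 to 2388), against 1477 bp (1469 to 1485) for the other narrow shared sites. The quartiles of the members were 1994 and 2853 bp. Of the members, 35 (1.49%) were under 1500 bp, against 51.6% of the others. Median peak widths of the members in the vehicle, double-labelled and 4-OHT lists were 2063.5, 2255 and 2230 bp, and those of the others 1210, 1368 and 1310 bp. Width and score come from the same peaks, so this is a description of the choice and not a separate finding.

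Width was greater at each higher score below the ceiling too. Sites with a lowest score of 80 to 200 had a median of 1135 bp. The medians were 1420 bp from 200 to 500, 1753 bp from 500 to 1000, 1957 bp from 1000 to 2000 and 2114.5 bp from 2000 to 3100. Read the other way, members made up 0.303% of the narrow shared sites of 1000 to 1500 bp, 7.17% at 1500 to 2000 bp, 17.2% at 2000 to 2500 bp and 24.3% at 2500 to 3000 bp. They were 24.98% (22.5% to 27.6%) at 3000 to 3500 bp and 32.2% (28.4% to 36.2%) at 3500 to 4000 bp. Wide sites short of the ceiling were therefore common, and the larger share of narrow shared sites in every 500 bp band from 1000 to 4000 bp was not at the ceiling in all 3 lists.

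**Figure D1:**
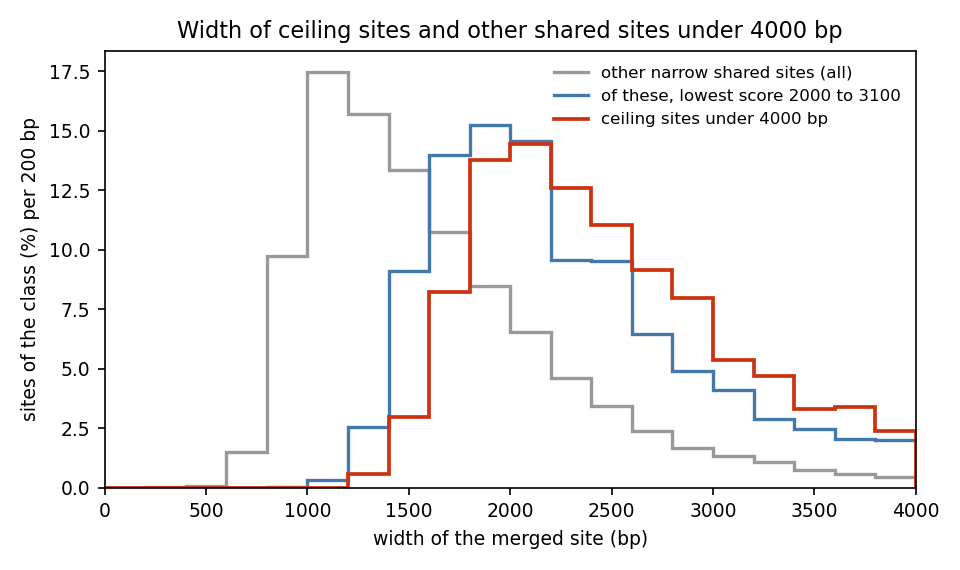
Width of the merged site in bp (x axis) against the percentage of each class per 200 bp (y axis), for the 2346 members (red), the 2220 other narrow shared sites with a lowest score of 2000 to 3100 (blue) and all 28647 other narrow shared sites (grey). The members' median of 2358 bp lies to the right of both, and the red curve is cut by the limit at 4000 bp.

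The width limit cut through a continuous range. Without it the ceiling rule gave 2731 sites, so 85.9% of all ceiling sites were under 4000 bp and 385 were not. The widest members were chr17:25150257-25154249 (3993 bp), chr15:74450591-74454576 (3986 bp) and chr19:7413074-7417059 (3986 bp). The first was covered by 2 vehicle peaks summing to 3737 bp, 1 double-labelled peak of 3914 bp and 1 4-OHT peak of 3946 bp. The narrowest ceiling sites past the limit were chr3:30498271-30502271 and chr15:36721040-36725040, both 4001 bp, and chr10:41994927-41998936, of 4010 bp.

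The narrowest members reached the ceiling with little over 1 kb. These were chr3:14610746-14611973 (1228 bp), chr9:113839185-113840467 (1283 bp) and chr5:3151544-3152829 (1286 bp). Peak widths in the vehicle, double-labelled and 4-OHT lists, in that order, were 1135, 1189 and 1203 bp at the chromosome 3 site. At the chromosome 9 site they were 1205, 1128 and 1172 bp, and at the chromosome 5 site 1281, 1167 and 1165 bp. All 3 sites scored exactly 3100 in each list. Their surroundings differed, with the nearest other site 53 bp away at the chromosome 9 site, 29131 bp at the chromosome 3 site and 147613 bp at the chromosome 5 site. The last is the first merged site of its chromosome.

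Peaks of the members had nearly the same extent in every list. At the 2226 members with 1 peak in each list, the difference between the widest and the narrowest of the 3 peaks was a median of 9.49% of their mean (8.999% to 9.81%), against 17.1% (16.8% to 17.2%) at 27339 other narrow shared sites. In base pairs these differences were close, at 205 bp (197 to 213) and 213 bp (211 to 215), so the smaller percentage goes with the greater width. Peak centres differed by a median of 57.25 bp between the vehicle and 4-OHT lists at members and by 57 bp at the others. Between the double-labelled and 4-OHT lists the shifts were 53 and 54.5 bp. Splitting was uncommon, with several peaks at 65 members in the vehicle list, 25 in the double-labelled list and 72 in the 4-OHT list. At 120 members it occurred in at least 1 list. It was no rarer than elsewhere, since 2226 of 2346 members and 27339 of 28647 others had 1 peak in each list.

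Members were a little wider in the 4-OHT and double-labelled lists than in the vehicle list. The ratio of peak width in the 4-OHT list to that in the vehicle list had a median of 1.04, and 72.1% of members (70.2% to 73.9%) had the wider peak in the former. For the double-labelled list against the vehicle list the ratio was 1.05, and its peak was wider at 77.8% (76.0% to 79.4%). At the other narrow shared sites the same ratios were 1.06 and 1.09, with 67.6% and 74.1% wider. The 4-OHT list against the double-labelled list gave 0.99 at members, with 41.8% wider. Median scores of the other narrow shared sites were likewise lowest in the vehicle list, but over all peaks the median was 331 in the vehicle list, 365 in the double-labelled list and 322 in the 4-OHT list. With 1 list of each clear label, treatment and other differences between the libraries cannot be told apart here.

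A few members differed in extent by more. The ratio of 4-OHT to vehicle peak width was over 1.5 at 37 of the 2226 and under 1/1.5 at 1. At the other narrow shared sites it was over 1.5 at 1449 of 27339 and under 1/1.5 at 216. Such differences were thus no more frequent at members, and ratios over 1.5 outnumbered those under 1/1.5 in both classes. The largest ratio, 2.35, was at chr4:140184891-140188163, with vehicle, double-labelled and 4-OHT peaks of 1392, 2463 and 3273 bp. At chr8:75015372-75017966 the peaks were 1097, 2544 and 2558 bp, and at chr6:72164767-72168605 they were 1550, 3355 and 3517 bp. At all 3 the double-labelled peak was nearer in width to the 4-OHT peak than to the vehicle peak. The smallest ratio, 0.58, was at chrX:91422612-91424826, with 1901, 2155 and 1111 bp. It was followed by chr10:81006041-81008781 with 2709, 2371 and 1865 bp, and chr15:57964725-57968303 with 3258, 3428 and 2370 bp. At these 3 the 4-OHT peak was the shortest, and the double-labelled peak was nearer in width to the vehicle peak.

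Members lay on all 19 autosomes and X, broadly in proportion to the narrow shared sites. The share of narrow shared sites that were members ran from 6.31% (5.43% to 7.31%) on chromosome 2 to 9.81% (8.59% to 11.2%) on chromosome 7, which held 196 members among 1997 sites. Chromosome 11 followed with 8.97% (7.91% to 10.2%), or 224 members, the largest number on any chromosome. The intervals of chromosomes 7 and 11 lay above that of chromosome 2. Broad ceiling sites of 4000 bp or more were spread otherwise, with 49 on chromosome 11, 39 on chromosome 15 and 1 on each of chromosomes 18 and X.

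X ranked differently from list to list. On X, 48 of 579 narrow shared sites were members, or 8.29% (6.31% to 10.8%), against 7.56% (7.26% to 7.86%) on the autosomes, which was within the interval of X. In the double-labelled list 24.0% (20.7% to 27.6%) of the X sites were at the ceiling, the highest share of all 20 chromosomes, and 19.03% of the autosomal sites. In the 4-OHT list X was again the highest, at 17.4% (14.6% to 20.7%) against 13.997% on the autosomes. In the vehicle list X ranked 4 at 8.29%. Chromosomes 7 and 11, by contrast, ranked 1 and 2 in the vehicle list and 2 and 3 in both other lists. The interval of X overlapped that of chromosome 7 in every list, so the order of these chromosomes is not resolved.

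**Figure D2:**
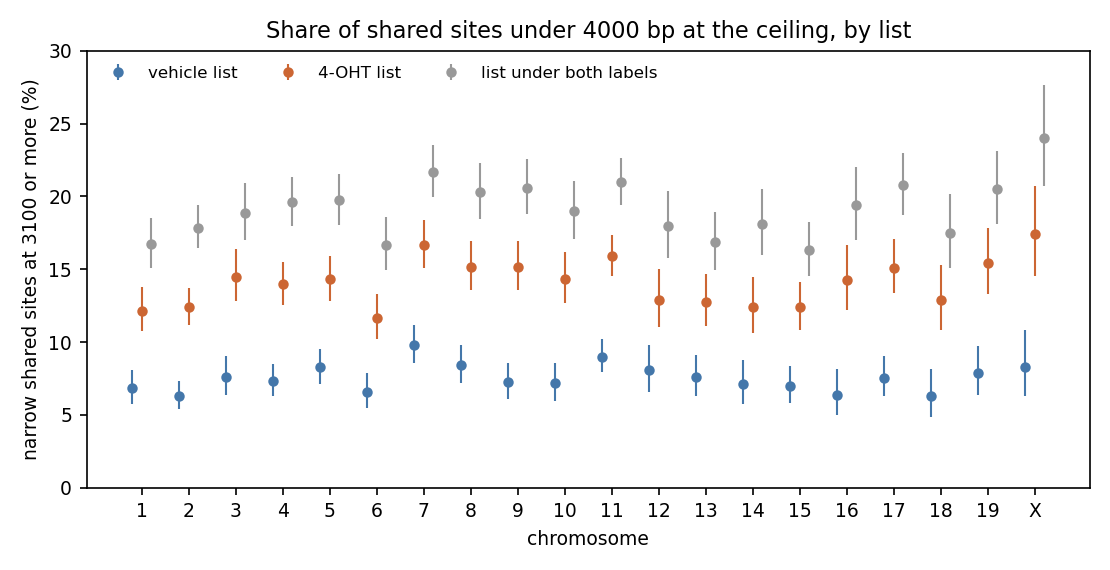
Percentage of narrow shared sites with a score of 3100 or more (y axis) on each chromosome (x axis), by list, with Wilson 95% intervals. The vehicle list sits lowest on every chromosome, chromosome 7 is its highest at 9.81%, and X is the highest in the 4-OHT list (17.4%) and the double-labelled list (24.0%).

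Within chromosomes the share of members varied from window to window. Among 212 windows of 10 Mb with at least 50 narrow shared sites, the median share of members was 7.07%, with 5% of windows below 2.45% and 5% above 12.6%. How much of this spread counting error alone would give was not tested, and the windows named next are the extremes of the 212. The highest share was at 20 to 30 Mb of chromosome 11, with 19 members of 86 sites or 22.1% (14.6% to 31.9%). The next were at 0 to 10 Mb of chromosome 7 (13 of 64, 20.3%) and 10 to 20 Mb of the same chromosome (20 of 108, 18.5%), and 20 to 30 Mb there ranked 5 (29 of 196, 14.8%). The first 30 Mb of chromosome 7, joined after these counts were seen, held 62 members of 368 sites, or 16.8% (13.4% to 21.0%), and the rest of that chromosome 134 of 1629, or 8.23% (6.99% to 9.66%). At the low end, 30 to 40 Mb of chromosome 8 had 0 members of 82 sites, and 40 to 50 Mb of X had 0 of 50. Taking 3 sites as the limit that a count of 0 allows, these permit shares of up to 3.66% and 6%, and the upper Wilson bounds are 4.48% and 7.13%.

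Members stood apart from other sites. The gap from the edge of a member to the nearest other merged site, whichever list it came from, had a median of 7990.5 bp (7385 to 8619), against 5552 bp (5430 to 5663) for the other narrow shared sites. A neighbour within 1 kb was found at 11.2% of members (9.96% to 12.5%) and at 16.1% of the others (15.7% to 16.5%). A neighbour within 5 kb was found at 37.1% (35.2% to 39.1%) and 47.2% (46.6% to 47.8%). Between centres the median distances were 9997.75 and 7132.5 bp, in the same order as the gaps between edges. Counting shared sites alone as neighbours, the medians were 13227 and 9561 bp.

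The longer gap was found on its own in each list and on nearly every chromosome. With the vehicle list by itself, ceiling peaks under 4000 bp had a median gap of 10932.5 bp to the next peak of that list, and its peaks below the ceiling 8272 bp. In the double-labelled list the medians were 9042 and 5835 bp, and in the 4-OHT list 7696 and 5883 bp. The intervals of the paired medians did not overlap in any of the 3 lists. By chromosome, the median gap of members exceeded that of the others on 19 of 20. On chromosome 1 it was 14445 bp against 6678 bp, and on X 20900 bp against 15364 bp. The exception was chromosome 13, at 7499 bp against 7985.5 bp. These lists share the cells' genome and their strong sites, so they are not independent repeats of the pattern.

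Score and spacing were not related evenly. The median gap was 5552 bp at the weakest narrow shared sites (lowest score 80 to 200), shortest at 200 to 500 with 4909 bp, and then 5309, 6519 and 7222 bp (6598 to 7855) in the bins from 500 to 1000, 1000 to 2000 and 2000 to 3100. The last overlaps the interval of the members, so the long gap is not shown to be particular to the ceiling. Ceiling sites past the width limit had shorter gaps, with a median of 2191 bp (1726 to 2613) and a neighbour within 1 kb at 33.2%. Gaps were generally shorter at wider sites, as shown next, and sites of 4000 bp or more short of the ceiling were not compared.

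At equal width, from 1500 to 3000 bp, the separation was greater than over all widths. Among sites of 1500 to 2000 bp, the median gap was 11754 bp (10297 to 12716) at 565 members and 5474.5 bp (5254 to 5703) at 7310 others. At 2000 to 2500 bp it was 9860 bp and 4774 bp, and at 2500 to 3000 bp 6679.5 bp and 3802 bp. From 3000 to 3500 bp the medians were 4286.5 bp (3135 to 5382) and 2846 bp (2361 to 3305), whose intervals overlap. From 3500 to 4000 bp they were 3609.5 bp (2923 to 4548) and 2911 bp (2247 to 3387). The narrower members thus had the longest gaps, and members near the width limit had neighbours almost as close as other sites of that width.

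**Figure D3:**
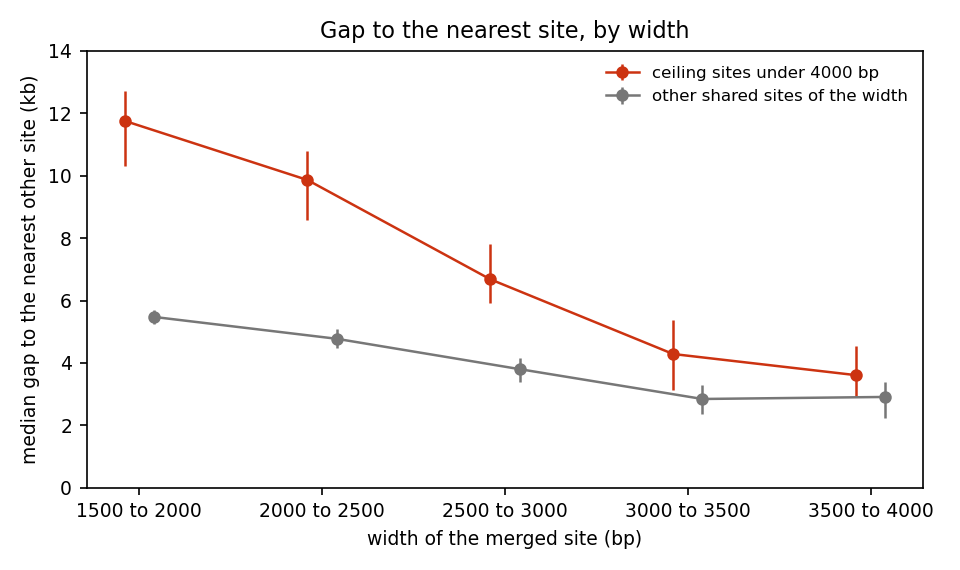
Median gap in kb to the nearest other merged site (y axis) for members (red) and other narrow shared sites (grey) in bands of 500 bp of site width (x axis), with 95% intervals of the median. The members fall from 11754 bp at 1500 to 2000 bp to 3609.5 bp at 3500 to 4000 bp, and the intervals of the classes are apart in the first 3 bands.

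Within 50 kb on either side the surroundings were alike. Members had a median of 4 other sites there (quartiles 2 and 8) and a mean of 5.48, and the other narrow shared sites a median of 5 (quartiles 3 and 8) and a mean of 5.75. The deficit lay close by. Members had 0.120 other sites per site at a gap under 1 kb, against 0.172 for the others, and 0.0942 against 0.136 between 1 and 2 kb. Between 2 and 5 kb the numbers were 0.303 and 0.379. Between 20 and 50 kb they had crossed over, at 3.31 and 3.28, and between 100 and 200 kb members had more neighbours, at 9.92 and 9.30. Sites with a lowest score of 2000 to 3100 had 0.150 under 1 kb, 0.114 between 1 and 2 kb and 0.316 between 2 and 5 kb. Farther out they had 3.36 between 20 and 50 kb and 9.53 between 100 and 200 kb. The pattern is therefore not shown to be particular to the ceiling.

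The nearest neighbours themselves were ordinary sites. The nearest merged site was shared by all lists at 62.2% of members (60.2% to 64.1%) and at 62.0% of the others (61.5% to 62.6%). Its best score in any list had a median of 319 for members and 317 for the others, and its median width was 1241.5 and 1215 bp. By these measures the site beside a member was much like the site beside another narrow shared site.

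Members had other members in their surroundings somewhat more often than the other sites had. Another member lay within 50 kb of 24.9% of members (23.2% to 26.7%) and of 19.9% of the others (19.5% to 20.4%). The nearest narrow shared site was itself a member for 8.87% of members (7.78% to 10.1%) and for 6.73% of the others (6.44% to 7.02%), beside the overall share of 7.57%. Sites scoring 2000 to 3100 gave 9.01% (7.89% to 10.3%) and 24.1% (22.4% to 25.9%) for the same measures, so the excess is not shown to be particular to the ceiling. By chromosome, another member within 50 kb was more frequent at members than at the others on 15 of 20. The difference was large on chromosome 19 (37.2% against 20.6%) and was turned round on chromosome 12 (6.90% against 20.9%) and chromosome 4 (14.4% against 23.1%).

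By distance, the share of members among narrow shared neighbours of a member was 4% under 1 kb (6 of 150 neighbours, each pair counted from both ends), 5.80% from 1 to 2 kb, 7.19% from 2 to 5 kb and 7.397% from 5 to 10 kb. It was 10.6% from 10 to 20 kb, 10.2% from 20 to 50 kb, 9.92% from 50 to 100 kb and 9.21% from 100 to 200 kb. Around the other narrow shared sites it went from 5.11% under 1 kb to 6.99% from 10 to 20 kb and 8.02% from 100 to 200 kb. Members were thus sparse beside each other at the shortest gaps, where merging joins peaks that touch, and above the overall share of 7.57% from 10 kb outward. The first 2 distances rest on few members, 6 and 8. Around sites with a lowest score of 2000 to 3100 the share was 4.52% under 1 kb and 10.8% from 1 to 2 kb. It was 8.51% from 10 to 20 kb and between 9.05% and 9.59% at longer distances. A share above 7.57% from 10 kb outward is therefore not shown to be particular to the ceiling.

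**Figure D4:**
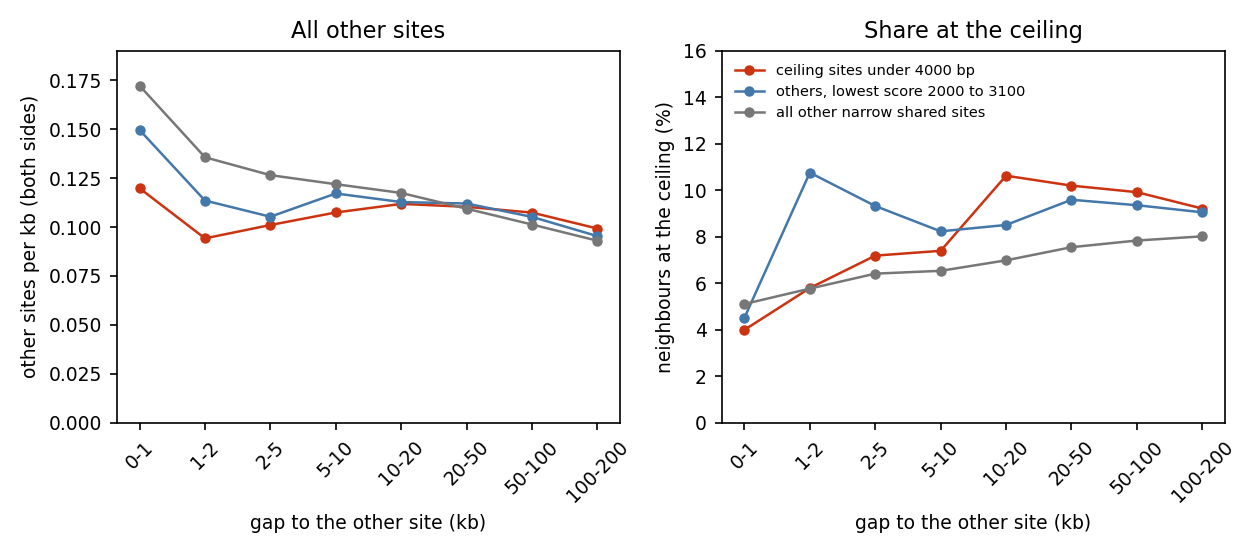
Left, number of other merged sites per kb at each gap (x axis, kb) around members (red), other narrow shared sites with a lowest score of 2000 to 3100 (blue) and all other narrow shared sites (grey). Right, percentage of narrow shared neighbours at that gap that are members. Members have fewer sites beside them under 5 kb. At 10 to 20 kb, 10.6% of their narrow shared neighbours are members. The share there is 8.51% around sites of 2000 to 3100 and 6.99% around all others.

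Most members were nevertheless single. When members with no more than 50 kb between them were joined into runs, 1762 stood alone and 584 (24.9%) fell into 256 runs. There were 201 runs of 2, 44 of 3, 7 of 4, 3 of 5 and 1 of 7 members. The 4 longest runs also held other sites between their members, in numbers that differed between the runs.

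The longest run lay at chr8:73282469-73398424, with 7 members in 116 kb. Its members were 3207, 2560, 2614, 2117, 3443, 2825 and 1967 bp wide in genome order. It held 20 merged sites, 17 of them shared, which covered 34.9% of its length. The 13 sites between the members scored from 132.32 (at chr8:73343833-73346344) to 1084.54 in the vehicle list where they had a peak. The strongest of these, chr8:73296267-73299192, scored 1084.54 in the vehicle list, 2319.95 in the double-labelled list and 1481.45 in the 4-OHT list, and ended just before the second member, chr8:73299261-73301820. The first member, chr8:73282469-73285675, had vehicle, double-labelled and 4-OHT peaks of 1637, 3147 and 3104 bp. It was the member of the run whose extent differed most between lists.

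**Figure D5:**
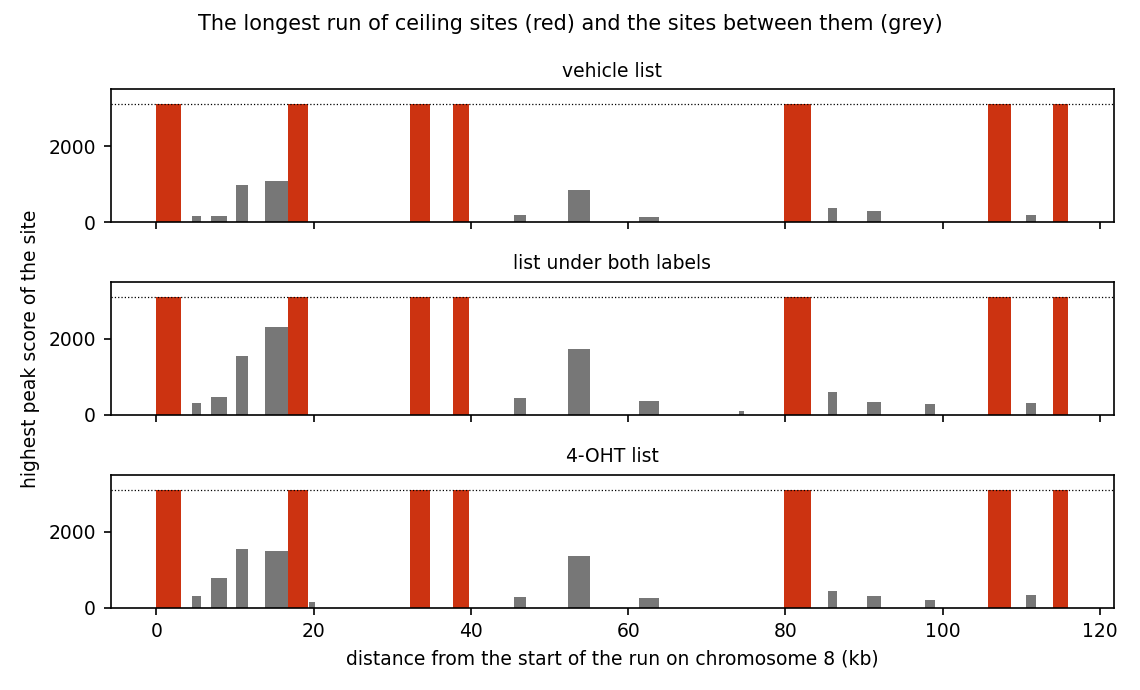
Highest peak score (y axis) of each merged site in the longest run against distance from its start in kb (x axis), 1 panel per list, with members in red, other sites in grey, bar width equal to site width and the dotted line at 3100. The 7 members reach the line in every panel, and no grey site exceeds 1084.54 in the vehicle list.

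The run at chr7:13562544-13640670 was made up almost only of strong sites. Its 5 members in 78.1 kb were 2335, 2302, 3162, 2475 and 1566 bp wide, and 1 further site lay among them. That site, chr7:13618939-13620925, missed the rule only in the vehicle list, with scores of 3084.67, 3100 and 3100. All 6 sites were shared and covered 17.7% of the run, which lies in the member-rich first 30 Mb of chromosome 7.

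The run at chr10:80754778-80848855 had 5 members of 2795, 3855, 3387, 3399 and 2483 bp among 15 merged sites, of which 8 were shared. Its other sites with a peak in the vehicle list scored at most 389.54 there. Among its members, chr10:80846373-80848855 had vehicle, double-labelled and 4-OHT peaks of 1584, 2483 and 1868 bp. The run at chr13:23621820-23715001 also had 5 members and came after these in genome order. There the first 2 members, chr13:23621820-23624991 and chr13:23625011-23628201, almost touched. Of its other 10 sites, 5 were at 3100 in both the double-labelled and the 4-OHT list with vehicle scores of 1913.76 to 2979.72.

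At the other extreme were members far from any other site. The largest gap was at chr1:113760372-113761960 (1589 bp), with no other site of any list for 4273197 bp before it and 6445212 bp after it. Its vehicle, double-labelled and 4-OHT peaks were 1491, 1466 and 1546 bp, and it scored 3100 in each. The next was chr3:16082522-16084002 (1481 bp), 1440 kb from the nearest site, with scores of 3147.17 in the vehicle list and 3100 in the others. The third was chr4:71859631-71863317, 453 kb from the nearest site and 3687 bp wide. The first and the second were narrow for members and the third was wide.

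Isolation was about as frequent among members as among the rest. A gap of 100 kb or more was found at 43 members, or 1.83% (1.36% to 2.46%), and at 563 of the others, or 1.97% (1.81% to 2.13%). The 43 isolated members had a median width of 2110 bp (1839 to 2476) and the other members 2360 bp (2331 to 2391), with overlapping intervals. Of the isolated members, 18 (41.9%, 28.4% to 56.7%) were under 2000 bp, against 25.3% (23.5% to 27.1%) of the other members. The isolated sites among the other narrow shared sites had a median width of 1256 bp (1207 to 1322). Members were wider than the others among all narrow shared sites too, so that contrast describes the choice and not isolation. Members with a neighbour within 2 kb numbered 444, with a median width of 2650 bp (2551 to 2730).

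No gene was assigned to any site, because the gene tables used here are on the build GRCm38 and the peaks on mm9. Whether members lie at promoters, and which sequence they hold, was not analysed here. The fibroblast identity of the cells was not checked against marker genes for the same reason.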

How the data were processed

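DNase-seq peak lists of 4 libraries of MycER 3T9 fibroblasts were used. The submitters' processing notes name MACS 1.4.1, BWA 0.6.2, SAMtools and the genome build mm9, with settings not given in the sources used here. The deposited lists give each peak's position and score, which the authors took from the caller. Its meaning, minus 10 times the log10 of the p-value, is inferred from which caller was used and from the scores themselves, as is the reading of 3100 as a stop. Depth is unknown.

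Peaks were merged where they overlapped by 1 bp, and the merge matched bedtools 2.31.1 at all 52181 sites. A site's score in a list was its highest peak score. Gaps run between edges of merged sites, and starts are printed counted from 1. The choice of members and the gaps were tested on 20000 simulated sites, all of which were recovered. Neighbouring simulated sites were spaced too far apart to merge with each other, so the shortest gaps were not covered. Python 3.11.15, numpy 2.4.6, scipy 1.17.1 and matplotlib 3.10.9 were used. No test between groups was made, because 1 list carries both labels.

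The members and the measures were chosen with earlier results of these data known. Regions named are the 3 widest, narrowest and most isolated members, the 3 longest runs, the 3 with the largest and the 3 with the smallest width ratio of the 4-OHT list to the vehicle list, and the 3 sites beyond each limit, with ties in genome order. The run on chromosome 13, tied with the other runs of that size, and the sites named inside runs were added after their values were seen. Alternatives were a ceiling of 2000, a limit of 3000 bp or none, merging within 500 bp, a score of at least 100, autosomes only, 1 peak per list, other neighbour sets and windows, and each list left out. A score of exactly 3100, distances between centres, each list by itself, bands of width and each chromosome were added later. Gene lists and markers in the plan need an mm9 annotation and were not used here.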

Additional observations from a re-analysis of the deposited data

How the results depend on the processing

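Of 78 values under the alternatives, 52 stayed within the interval of the main value (counts within 1.5 times) and 26 moved. The longer gap of members than of other narrow shared sites and their more frequent member neighbours kept their direction in every setting in which both classes were computed. Gap ratios ran from 1.26 (no width limit) to 1.62 (under 3000 bp). The greater width of members kept its direction too, but width and score come from the same peaks, so that adds no support. All settings reuse the same lists. A ceiling of 2000 gave 4566 members, a median width of 2239.5 bp, 18.1% of the sites on X, 17.2% with a member as nearest narrow shared site, and 64.1% for the share of sites at the ceiling in both other lists that were at it in the vehicle list. A limit of 3000 bp gave 2206 bp, a gap of 9268 bp and 7.54%. No limit gave 2494 bp, 6857 bp and 57.1% for that share. Merging within 500 bp gave a gap of 8982 bp, a minimum score of 100 gave 8971.5 bp, shared neighbours 13227 bp and centres 9997.75 bp. Sites with 1 peak per list had a width of 2326 bp. Median neighbours were 3 among shared sites, 1 within 10 kb and 19 within 200 kb. Leaving out 1 list gave 2401 to 4243 members, widths of 2252 to 2302 bp, 8.05% to 15.1% on X, gaps of 7786 to 9004.5 bp and 8.62% to 13.8% with a member nearest. The highest count and shares came without the vehicle list (EtOH 0 h replicate 1), which sets membership. With a list left out, that share cannot be computed. No paired analysis was possible because 1 list carries both labels and no result comes from a test. Depth is unknown, so a site below the ceiling in the vehicle list cannot be called less open there.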
